A study of Mus musculus with 60 samples.

Results

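The 8 genes described here encode peptides that the hypothalamus is known for: vasopressin (Avp), oxytocin (Oxt), melanin-concentrating hormone (Pmch), hypocretin, also called orexin (Hcrt), pro-opiomelanocortin (Pomc), galanin (Gal), the cocaine- and amphetamine-regulated transcript peptide (Cartpt) and corticotropin-releasing hormone (Crh). They were taken by gene name from a count table of 21950 genes, and all 8 were found. RNA was sequenced from mice that carry the adhesion receptor gene Adgrl3 (Adgrl3 +/+, WT) or lack it (Adgrl3 -/-, KO), from dissected striatum, hippocampus and prefrontal cortex. The 60 libraries form 6 groups of 10, 1 per genotype and region. The animals were 12 of each genotype, killed between postnatal day 65 and 76. The labels give no strain, sex or further allele, and do not say whether the regions with the same replicate number came from 1 mouse. Regions were cut from frozen brains, and no treatment is named. The genes were chosen with their levels by region, their KO and WT values and their covariation already known, so these are given as descriptions. Where the number of them called by a test is printed, it stands beside the share of all genes called, and nothing is read from it.

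Most vasopressin and oxytocin of the brain is made in magnocellular neurons of the paraventricular and supraoptic nuclei, while melanin-concentrating hormone and hypocretin are made by separate, intermingled neurons of the lateral hypothalamus. Pomc neurons lie in the arcuate nucleus, and the gene is also highly expressed in the pituitary. Galanin, Cartpt and Crh are made in the hypothalamus too, but they are also known from neurons elsewhere: Crh marks interneurons of cortex and hippocampus, and Cartpt is found in the ventral striatum and in the hippocampus. The peptides are cut from larger precursors and act through G protein-coupled receptors.

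Library depth was 38985577 to 51387833 reads counted on genes, and levels are given as CPM, reads scaled to a common library size. Adgrl3 was lower in every KO group: 34.9 against 125.1 CPM in hippocampus, 35.3 against 149.1 in prefrontal cortex and 41.8 against 162.9 in striatum. The summed level of 8 striatal neuron genes, Drd1 and Drd2 among them, was 4330 to 7166 CPM in the striatum libraries and at most 508.6 in any other library. The 8 hippocampal neuron genes summed to 605.3 to 845.0 CPM in hippocampus and to at most 358.0 elsewhere, and 8 genes of cortical excitatory neurons to 2279 to 2609 CPM in prefrontal cortex and at most 1837 elsewhere.

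Avp and Oxt are neighbours on chromosome 2, in opposite orientation with 3566 bases between their ends, and they arose from 1 ancestral gene. In the build of the files (GRCm38), Avp (ENSMUSG00000037727.6) spans 130580620 to 130582554 on the minus strand and Oxt (ENSMUSG00000027301.7) 130576173 to 130577054 on the plus strand. Pmch (ENSMUSG00000035383.7) lies at chromosome 10, 88091072 to 88092375, and overlaps in part with Parpbp, which is on the opposite strand. Hcrt (ENSMUSG00000045471.4) lies at chromosome 11, 100761069 to 100762931, on the minus strand. The 250 bases before the start site of these 4 genes are printed from RefSeq (GRCm38.p6), 5′ to 3′ on the gene's strand. Each of these genes was high in a few libraries, which were not the same for all 4. Capitals mark matches to the letters TATAAA or CATAAA, to AGGTCA, the core of a nuclear receptor site, and to CACGTG, an E-box, on either strand.
Avp, chr2:130582589-130582838, minus strand: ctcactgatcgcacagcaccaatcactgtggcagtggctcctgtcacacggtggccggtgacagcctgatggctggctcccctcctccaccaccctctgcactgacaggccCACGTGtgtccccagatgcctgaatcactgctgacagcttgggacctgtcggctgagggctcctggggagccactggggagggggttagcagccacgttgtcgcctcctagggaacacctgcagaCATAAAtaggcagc
Oxt, chr2:130575919-130576168, plus strand: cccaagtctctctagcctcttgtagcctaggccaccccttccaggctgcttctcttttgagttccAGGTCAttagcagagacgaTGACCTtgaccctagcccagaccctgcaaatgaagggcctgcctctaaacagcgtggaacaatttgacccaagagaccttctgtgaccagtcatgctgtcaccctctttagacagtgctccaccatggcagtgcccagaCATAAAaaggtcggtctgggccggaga
Pmch, chr10:88090822-88091071, plus strand: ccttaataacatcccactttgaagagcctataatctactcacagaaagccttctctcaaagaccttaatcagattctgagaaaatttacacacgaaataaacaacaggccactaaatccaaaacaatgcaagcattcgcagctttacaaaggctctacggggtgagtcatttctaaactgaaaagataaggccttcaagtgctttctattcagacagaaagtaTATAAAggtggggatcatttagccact
Hcrt, chr11:100762932-100763181, minus strand: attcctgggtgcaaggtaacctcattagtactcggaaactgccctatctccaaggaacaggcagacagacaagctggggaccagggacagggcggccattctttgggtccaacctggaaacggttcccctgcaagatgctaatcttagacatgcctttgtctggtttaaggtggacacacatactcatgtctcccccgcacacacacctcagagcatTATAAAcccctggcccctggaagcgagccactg

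Each of the 4 windows held TATAAA or CATAAA on the printed strand, beginning 14 bases before the start in Avp, 27 in Oxt, 27 in Pmch and 33 in Hcrt. Over 32851 RefSeq windows of this length, 12.4% held TATAAA and 10.8% held CATAAA on either strand. The receptor core was found in the Oxt window on each strand, beginning 185 bases (printed strand) and 166 bases (other strand) before the start, and in 14.0% of all windows. Avp held the E-box 139 bases before the start, a word found in 6.02% of all windows. No matches overlapped. The Pomc window, not printed, held TATAAA and the receptor core, Gal and Cartpt held none of the 4 words, and no window was used for Crh. The words were chosen after the sequences were seen, and a match is a description of letters, not of a bound site.

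The coding sequences of Avp (504 bases) and Oxt (375 bases) share a run of 127 identical bases, from base 131 of Avp and base 119 of Oxt. It is printed because reads inside it fit both genes, which makes the split of such reads between them uncertain.
Avp and Oxt, shared run: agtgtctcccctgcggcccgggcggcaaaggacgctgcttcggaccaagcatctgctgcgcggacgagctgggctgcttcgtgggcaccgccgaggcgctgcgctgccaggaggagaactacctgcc
Of the 455 windows of 50 bases in the Avp coding sequence (GENCODE vM21), 78 also occur in that of Oxt.

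Levels of 3 kinds were seen across the 60 libraries, and the plot of all levels shows them. Pomc, Cartpt and Crh had at least 24 reads in every library, Gal had between 1 and 78, and Avp, Oxt, Pmch and Hcrt were near the limit of detection in most libraries and high in a few, nearly all from KO striatum.

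**Figure D1:**
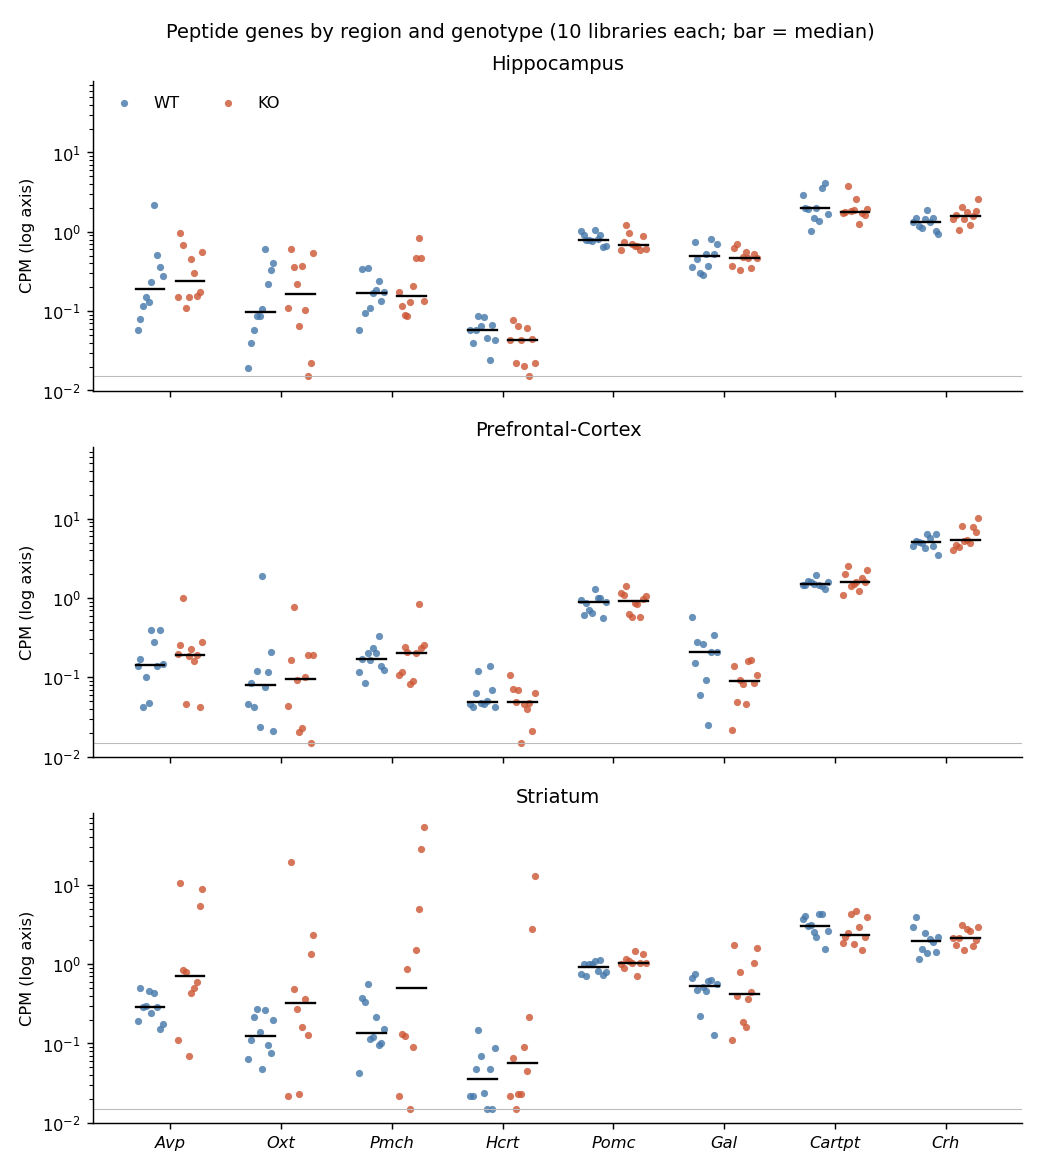
Level of the 8 peptide genes in CPM (log axis) in each library of hippocampus, prefrontal cortex and striatum, WT in blue and KO in red, with the median of 10 libraries as a bar. Points on the grey line had 0 reads. Avp, Oxt, Pmch and Hcrt had at most 2.16 CPM in hippocampus and prefrontal cortex and reached 10.6, 19.2, 52.9 and 13.1 CPM in KO striatum.

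Vasopressin, the antidiuretic hormone, was counted in all 60 libraries. In WT striatum Avp had 0.153 to 0.503 CPM with a median of 0.288 (6 to 23 reads). In KO striatum it had 0.0697 to 10.6 CPM with a median of 0.699: 479 reads in KO replicate 2, 405 in KO replicate 10 and 261 in KO replicate 9, and at most 35 in the other 7. KO replicates 2, 3, 4, 8, 9 and 10 lay above every WT library, KO replicates 1 and 5 lay below every WT library, and the groups therefore overlapped. The mean was 2.81 ± 3.97 CPM in KO and 0.304 ± 0.124 in WT (SD, n = 10 each), and the fitted KO minus WT difference was 3.20 ± 0.80 on the log2 scale (SE). Without KO replicates 2, 9 and 10 the fitted difference was 0.64 ± 0.38.

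Oxytocin, the hormone of milk ejection and labour, followed the same libraries with another balance. In WT striatum Oxt had 0.0482 to 0.270 CPM with a median of 0.124. KO striatum ranged from 0.0220 to 19.2 CPM with a median of 0.320, and KO replicate 2 held 866 reads, KO replicate 10 had 108 and KO replicate 9 had 65. The remaining 7 KO libraries had at most 20 reads, and 6 of the 10 KO libraries lay above every WT library. Oxt was below the filter on low counts in each region, so its KO minus WT value in striatum, 4.02 ± 1.11 (log2, SE), comes from a fit without that filter.

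Melanin-concentrating hormone, a peptide of feeding and sleep, gave the highest counts of the 8 genes. Pmch had 0.0431 to 0.565 CPM in WT striatum, with a median of 0.137, and 0 to 52.9 CPM in KO striatum, with a median of 0.502. KO replicate 10 had 2437 reads, KO replicate 9 had 1360, KO replicate 8 had 234, KO replicate 7 had 67 and KO replicate 4 had 38. KO replicate 2, the library with the most Avp and Oxt, had 6 Pmch reads (0.133 CPM), a level inside the WT range. KO replicate 5 had 0 reads, where a count of 0 allows up to 3. The mean was 8.86 ± 17.7 CPM in KO and 0.212 ± 0.164 in WT (SD, n = 10 each), and the difference fitted without the filter was 5.38 ± 1.35 on the log2 scale.

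Hypocretin, the wake-promoting peptide lost in narcolepsy, was the rarest. Hcrt had 0 to 6 reads in each WT striatum library. In KO striatum there were 603 reads in KO replicate 10 (13.1 CPM), 135 in KO replicate 9 (2.78 CPM), 10 in KO replicate 8 (0.213 CPM) and at most 4 in the other 7. These 3 libraries lay above every WT library, whose highest was 0.148 CPM. The median was 0.0560 CPM in KO and 0.0360 in WT, and the difference fitted without the filter was 5.07 ± 1.44 on the log2 scale.

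**Figure D2:**
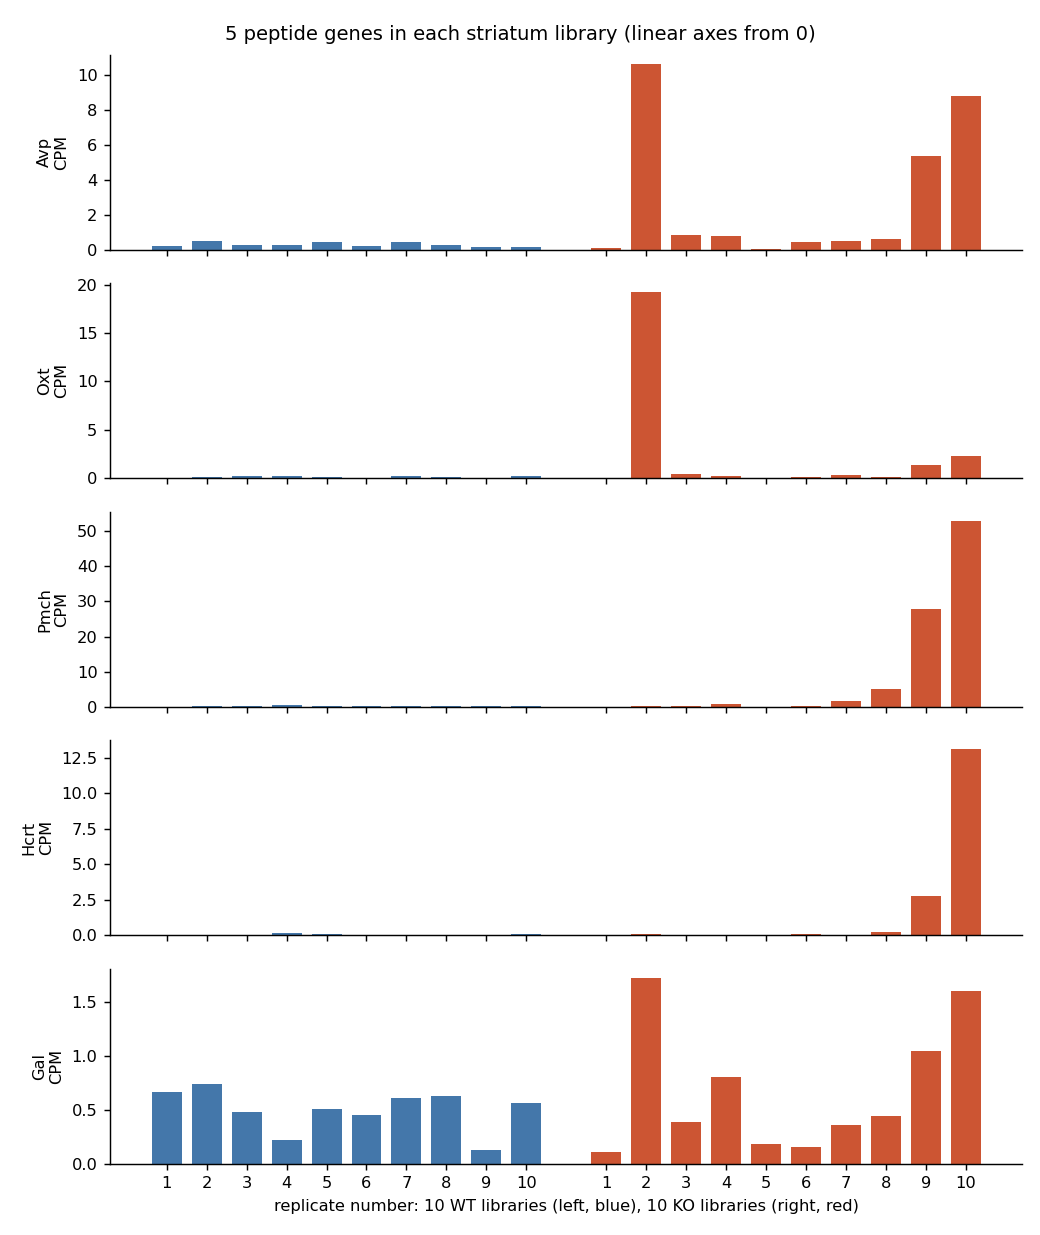
CPM of Avp, Oxt, Pmch, Hcrt and Gal in each of the 20 striatum libraries, as bars on linear axes that begin at 0, by replicate number with WT in blue on the left and KO in red on the right. Replicates 2, 9 and 10 of KO carry most of Avp and Oxt, and replicates 8, 9 and 10 carry most of Pmch and Hcrt.

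The ratio within each pair of peptides differed between libraries. Oxt made up 64.4% of the Oxt and Avp reads in KO striatum replicate 2 (95% exact Clopper-Pearson interval 61.8 to 67.0, 1345 reads), 19.9% in replicate 9 (15.7 to 24.7, 326 reads) and 21.1% in replicate 10 (17.6 to 24.8, 513 reads). The interval of replicate 2 does not overlap those of replicates 9 and 10, which overlap each other. Hcrt made up 4.10% of the Hcrt and Pmch reads in replicate 8 (1.98 to 7.41, 244 reads), 9.03% in replicate 9 (7.63 to 10.6, 1495 reads) and 19.8% in replicate 10 (18.4 to 21.3, 3040 reads). The last interval lies above the other 2. These intervals cover counting error only, since the reads carry no molecular identifiers that the labels name. They also leave out the uncertain split of reads from the run that Avp and Oxt share.

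In striatum Gal, which brainstem neurons make too, had 0.128 to 0.743 CPM in WT and 0.11 to 1.73 in KO. KO replicates 2 (1.73 CPM), 10 (1.61), 9 (1.05) and 4 (0.802) lay above every WT library, but the KO median, 0.420, was below the WT median of 0.538. The fitted difference was 0.45 ± 0.42 (log2, SE), and without KO replicates 2, 9 and 10 it was -0.52 ± 0.35. Pomc had 0.717 to 1.13 CPM in WT and 0.706 to 1.46 in KO, a difference of 0.25 ± 0.13. Cartpt had 1.56 to 4.34 against 1.51 to 4.67 CPM (-0.17 ± 0.21) and Crh 1.17 to 3.91 against 1.49 to 3.12 CPM (0.10 ± 0.19), so the KO and WT ranges of these 3 genes overlapped over most of their length. KO replicate 2 had 0.886 CPM of Pomc, 2.22 of Cartpt and 1.73 of Crh, all inside the WT ranges. KO replicate 10 had 3.97 CPM of Cartpt and 2.91 of Crh, inside the WT ranges too, while KO replicate 9 had 1.36 CPM of Pomc, above every WT library.

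For KO against WT in striatum, 5 of the 8 genes passed the filter on low counts (Avp, Pomc, Gal, Cartpt and Crh), and 0 of these were called by edgeR's quasi-likelihood test at an adjusted p of 0.05, where 0.0514% of 15553 genes were called. The filter asks for enough reads in as many libraries as the smaller group holds, and Oxt, Pmch and Hcrt did not reach that. DESeq2 called 2 members in striatum (Avp and Pmch) beside 0.158% of 17760 genes, and 1 edgeR fit of all 60 libraries called 3 (Avp, Oxt and Pmch) beside 0.136% of 16121. As the genes were chosen on this contrast, no weight is placed on these counts. In these bulk samples, fewer cells of a type and less RNA per cell cannot be told apart.

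Outside striatum Avp and Oxt were high in single libraries of either genotype, Pmch in KO replicate 8, and Hcrt in none. In hippocampus, Avp ran from 0.0574 to 2.16 CPM in WT (median 0.192) and from 0.11 to 0.967 in KO (median 0.241). Its highest values were 93 reads in WT replicate 7 and 50 in KO replicate 2, and Oxt was highest in the same libraries, with 26 and 31 reads. In prefrontal cortex the highest Oxt was 80 reads (1.87 CPM) in WT replicate 6, which had 17 Avp reads, an Oxt share of 82.5% (73.4 to 89.5). KO replicate 3 had 41 Avp and 32 Oxt reads there, and KO medians of 0.193 (Avp) and 0.0965 CPM (Oxt) stood beside WT medians of 0.143 and 0.0807. Pmch was highest in KO replicate 8 in both regions, with 38 reads in hippocampus (0.835 CPM) and 35 in prefrontal cortex (0.839 CPM), and the replicate of that number had 234 reads in striatum. No other hippocampus or prefrontal cortex library had over 23 Pmch reads. Hcrt had at most 6 reads in any library of these 2 regions.

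KO minus WT differences in hippocampus were -0.09 ± 0.59 for Avp, which was 0.83 without WT replicate 7, -0.13 ± 0.14 for Pomc, -0.07 ± 0.20 for Gal, -0.14 ± 0.23 for Cartpt and 0.31 ± 0.15 for Crh (log2, SE). Of these 5 genes 0 were called, beside 0.128% of 15581. In prefrontal cortex 3 genes passed the filter, with 0.10 ± 0.18 for Pomc, 0.12 ± 0.13 for Cartpt and 0.27 ± 0.15 for Crh, and 0 were called beside 0.117% of 15376. Gal had 0.0952 ± 0.0495 CPM in KO and 0.221 ± 0.161 in WT prefrontal cortex (SD, n = 10 each), at 1 to 25 reads a library. There 6 WT libraries lay above every KO library, and for no other of the 8 genes in any region did more than 3 WT libraries do so. Its fitted difference was -1.19 ± 0.40 without the filter. Genes of some other tissues had lower values in KO there too, but not of all. Median log2 differences of tested genes were 0.34 for choroid plexus and 0.03 for thalamus and habenula, with 0 called. They were -0.17 for septum and -0.24 for basal forebrain cholinergic genes, also with 0 called. All 6 olfactory bulb genes tested in prefrontal cortex had an unadjusted p under 0.05, with a median log2 difference of -1.79 (1 called, Scgn) and sums of 7.45 to 107.4 CPM in WT and 5.94 to 55.98 in KO. All 4 midbrain dopamine genes tested did too, with a median of -1.45 (0 called) and sums of 2.46 to 23.2 CPM in WT and 2.18 to 8.53 in KO. Thyrotropin-releasing hormone (Trh) had 1.19 CPM in KO and 4.41 in WT (-1.89 ± 0.38, not called). Their part in the Gal values was not tested.

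Fitted over the 3 regions together, 7 of the 8 genes passed the filter and 1 was called, Pmch, with 2.84 ± 0.66 (log2, SE). The background is 4.06% of 15987 genes. That fit takes the 60 libraries as independent. With the counts of equally numbered libraries summed, which leaves 20 sums, 0 members were called and Pmch had 4.06 ± 1.04. Without KO striatum replicates 2, 9 and 10 the difference was 1.20 ± 0.36 for Pmch, 0.30 ± 0.30 for Avp and -0.003 ± 0.41 for Oxt. In the test of whether the genotype difference varied between regions, 0 of 7 members were called, beside 0.0248% of 16121 genes.

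Across WT regions the common peptides had their own order. Crh, the releasing hormone of the stress axis, was highest in prefrontal cortex, with 5.06 ± 0.92 CPM against 2.11 ± 0.84 in striatum and 1.33 ± 0.28 in hippocampus (SD, n = 10 each). The prefrontal cortex and hippocampus ranges, 3.51 to 6.5 and 0.948 to 1.88 CPM, did not overlap, while striatum, at 1.17 to 3.91 CPM, overlapped with both. Cartpt had 3.14 ± 0.93 CPM in striatum, 2.21 ± 1.01 in hippocampus and 1.54 ± 0.17 in prefrontal cortex, and neighbouring regions overlapped. Gal had 0.501 ± 0.194 CPM in striatum, 0.511 ± 0.190 in hippocampus and 0.221 ± 0.161 in prefrontal cortex, with overlap between all 3. Pomc was level, with 0.907 ± 0.159, 0.833 ± 0.136 and 0.851 ± 0.224 CPM in the same order. Median Avp was 0.288, 0.192 and 0.143 CPM, median Oxt 0.124, 0.0963 and 0.0807, median Pmch 0.137, 0.171 and 0.168 and median Hcrt 0.0360, 0.0573 and 0.0491, all with overlapping ranges.

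At an adjusted p of 0.05 and a difference of at least 1 on the log2 scale, 2 of 5 members were called between hippocampus and prefrontal cortex (Gal higher, 1.20 ± 0.32, and Crh lower, -1.92 ± 0.17), beside 10.1% of 15826 genes. Between striatum and hippocampus 0 of 5 were called, beside 10.2%. Between striatum and prefrontal cortex 3 of 5 were called (Gal, 1.19 ± 0.32, Cartpt, 1.03 ± 0.20, and Crh, -1.26 ± 0.16), beside 11.6%. The levels by region were part of the choice of genes, and nothing is read from these counts. In the KO libraries the same contrast of striatum with hippocampus gave 2.91 ± 0.70 for Avp and 3.33 ± 0.91 for Oxt (log2, SE). The WT values were -0.37 ± 0.49 and -0.36 ± 0.71, although the WT medians of both genes were higher in striatum. WT hippocampus replicate 7 held the highest WT value of both in hippocampus.

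The spread between libraries of 1 group was large for the rare peptides. Over the 14831 genes with a mean of at least 0.5 CPM in striatum, the median SD of log2 CPM within a genotype was 0.12. It was 2.63 for Pmch, 1.97 for Hcrt, 1.83 for Oxt, 1.66 for Avp and 1.01 for Gal. Pmch, Hcrt, Oxt and Avp reach a mean of 0.5 CPM only through KO libraries (WT means 0.212, 0.0468, 0.148 and 0.304 CPM), so their spread is a description. Crh (0.45), Cartpt (0.51) and Pomc (0.26) were nearer the median but still above it, at ranks 578, 423 and 2249 from the largest of the 14831 genes. Their median reads in a striatum group were 39.5 to 125.5, so counting error is part of these SDs. The ranks are over genes of all read depths, and the part of counting error was not tested. In hippocampus and prefrontal cortex Pomc, Cartpt and Crh reached a mean of 0.5 CPM, with SDs of 0.28 to 0.53. The median SD over all such genes was 0.11 in hippocampus and 0.13 in prefrontal cortex.

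Within striatum several of the peptides varied together, and the plot of pairwise correlations shows 8 of 28 pairs with a Pearson r over 0.5, against 2 in hippocampus and 2 in prefrontal cortex. By Spearman's rho the numbers were 5, 1 and 4. These r are over 20 libraries, on deviations of log2 CPM from the genotype mean, which share library depth, and are descriptions without a p. Avp and Oxt had r = 0.91 (Spearman's rho 0.83) in striatum, 0.81 (0.79) in hippocampus and 0.71 (0.60) in prefrontal cortex, the only pair over 0.5 in each region. Reads from the run of identical bases printed above fit both genes, and their part in the r of Avp and Oxt was not tested. Pmch and Hcrt had 0.84 (rho 0.65) in striatum, against -0.34 in hippocampus and 0.22 in prefrontal cortex, where Hcrt had at most 6 reads. Avp and Gal had 0.85 (0.78), while Oxt and Pmch had 0.40 (0.50). Pomc had no r beyond 0.24 with another member in striatum, and Cartpt and Crh had 0.65 (0.68) with each other.

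Without KO striatum replicates 2, 9 and 10, 6 of the 28 pairs had an r over 0.5 across the other 17 libraries, of which Oxt and Pmch was not among the 8 pairs over all 20. Avp and Hcrt went from 0.63 to 0.11, Oxt and Gal from 0.74 to 0.40 and Pmch and Gal from 0.54 to 0.44. Avp and Oxt had 0.76, Avp and Gal 0.64, Avp and Pmch 0.64, Oxt and Pmch 0.54, Pmch and Hcrt 0.51 and Cartpt and Crh 0.62. KO replicates 3, 4, 7 and 8, each above every WT library for at least 1 peptide, are among these 17.

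**Figure D3:**
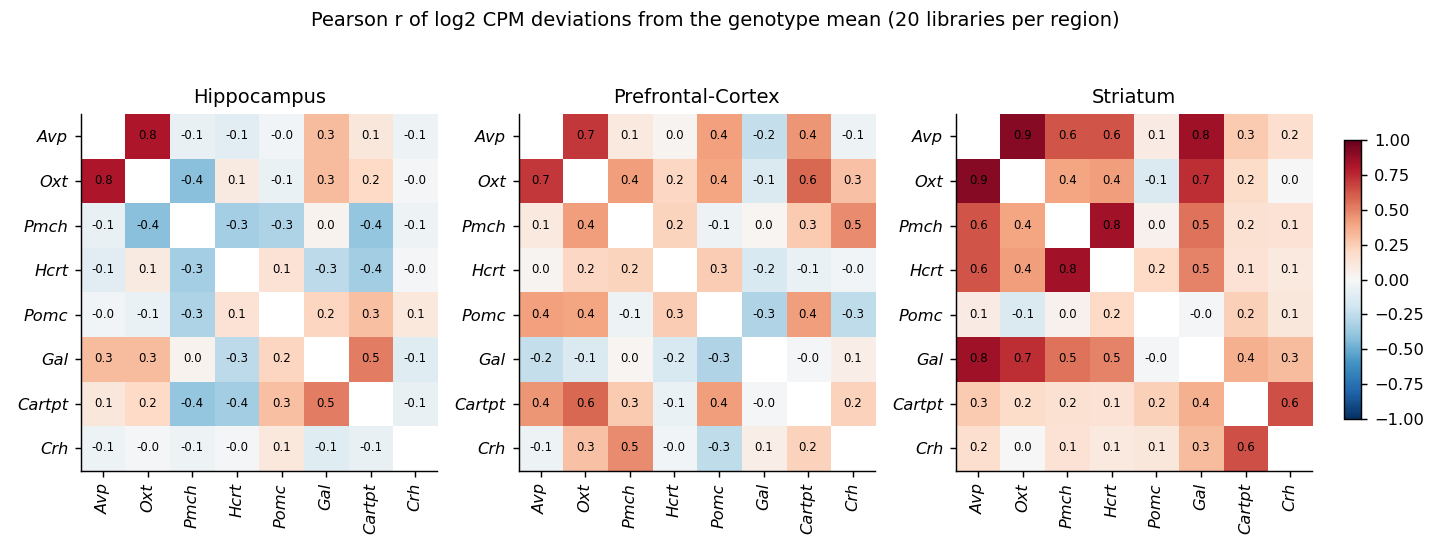
Pearson r between the 8 peptide genes within hippocampus, prefrontal cortex and striatum, on deviations of log2 CPM from the genotype mean over 20 libraries per region, from -1 (blue) to 1 (red). Avp and Oxt are correlated in each region (0.81, 0.71 and 0.91), and Pmch and Hcrt in striatum (0.84).

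To set the peptides against hypothalamic tissue by other genes, a mean of log2 CPM was taken over 12 transcription factor genes of the hypothalamus, Sim1 and Otp of the paraventricular nucleus and Nr5a1 of the ventromedial nucleus among them. Most are rare: 10 of the 12 had a median below 10 reads in either striatum group, and Nkx2-1, which striatal interneurons also express, had the highest level (3.50 to 6.13 CPM). KO replicates 10, 2 and 9 had the highest means of the 20 striatum libraries (-1.53, -1.58 and -2.02). Otp had 1.3, 1.04 and 0.719 CPM in them and a WT range of 0.0511 to 1.05. Sim1 had 0.564, 0.532 and 0.432 CPM, inside a WT range of 0 to 1.25, so for Sim1 the highest library was a WT library. KO replicate 8, with 234 Pmch reads, had a mean of -2.63, within the range of the WT libraries.

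Over all 20 striatum libraries the mean went with Avp (r = 0.86, rho = 0.75), with Oxt (r = 0.82, rho = 0.72) and with Gal (r = 0.78, rho = 0.75). Hcrt had r = 0.64 and rho = 0.54, and Pmch 0.52 and 0.46. These are descriptions with no p, of 24 relations computed, 8 genes in 3 regions, over libraries that differ in depth. Without the 2 libraries farthest from the median of the mean, r was 0.71 for Avp, 0.68 for Oxt and 0.64 for Gal. KO replicates 2, 9 and 10 stood apart from the rest, however, and over the other 17 libraries r was 0.38 for Avp, 0.38 for Oxt and 0.45 for Gal (rho 0.39, 0.35 and 0.59), so the relations of Avp and Oxt rest in the main on these 3 libraries. With the mean as a covariate in the fit of KO against WT in striatum, the Avp difference was 1.84 ± 0.36 and that of Gal 0.03 ± 0.28 (log2, SE). In hippocampus and prefrontal cortex the highest r were 0.48 for Oxt in hippocampus and 0.48 for Pmch in prefrontal cortex.

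**Figure D4:**
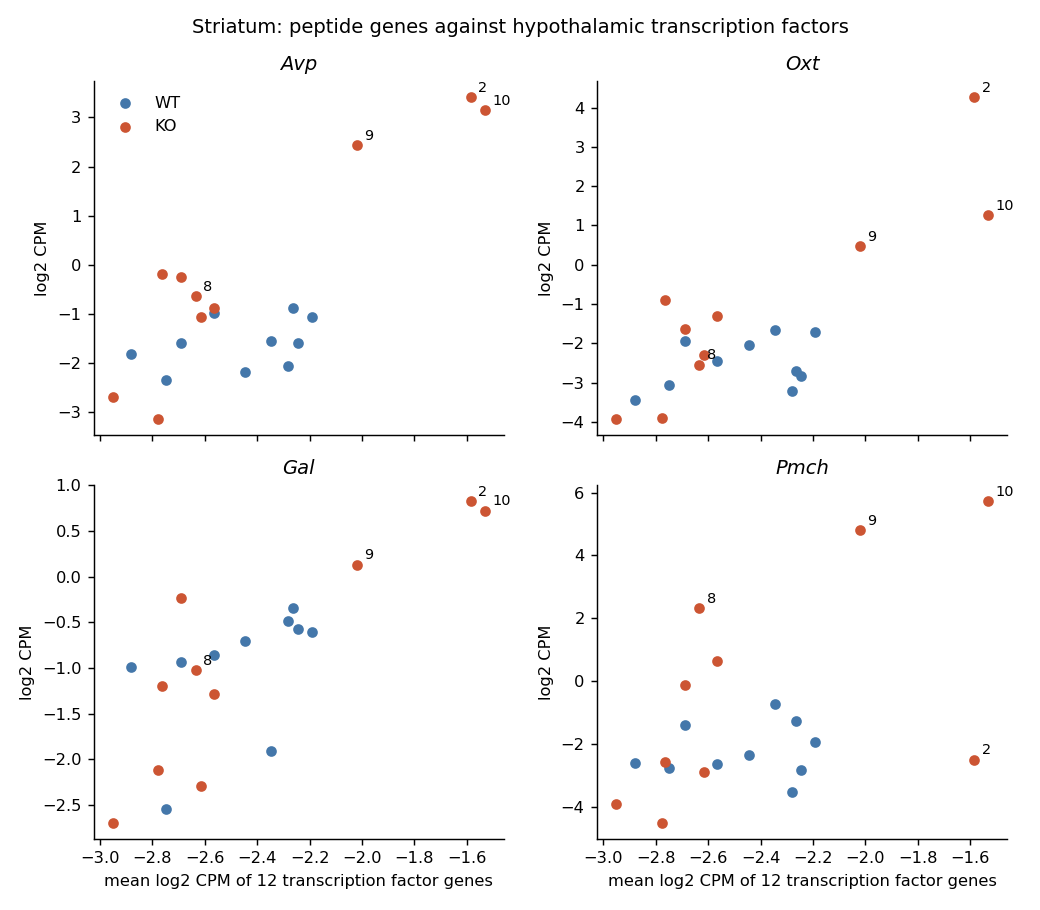
Level of Avp, Oxt, Gal and Pmch (log2 CPM) against the mean log2 CPM of 12 hypothalamic transcription factor genes in the 20 striatum libraries, WT in blue and KO in red, with KO replicates 2, 8, 9 and 10 numbered. KO replicates 2, 9 and 10 lie at the upper right for Avp, Oxt and Gal, and replicate 2 lies low for Pmch.

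Genes of the thalamus, which borders the hypothalamus, and of the habenula above it were also high in some of these libraries. The 10 genes of that list, the thalamic kinase Prkcd and the habenular receptor Gpr151 among them, summed to 450.8 CPM in KO replicate 10, 339.3 in KO replicate 2, 291.2 in KO replicate 8 and 275.0 in KO replicate 9. WT replicates 5, 3 and 6 followed with 272.1, 259.2 and 245.5 CPM, and the other 13 libraries had at most 121.5. The 3 WT libraries had Avp and Pmch levels inside the range of the other WT libraries, as the plot of peptides against these genes shows. The group ranges were 64.5 to 272.1 CPM in WT, with a median of 74.3, and 54.6 to 450.8 in KO, with a median of 119.3. Their part in the peptide values was not tested.

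**Figure D5:**
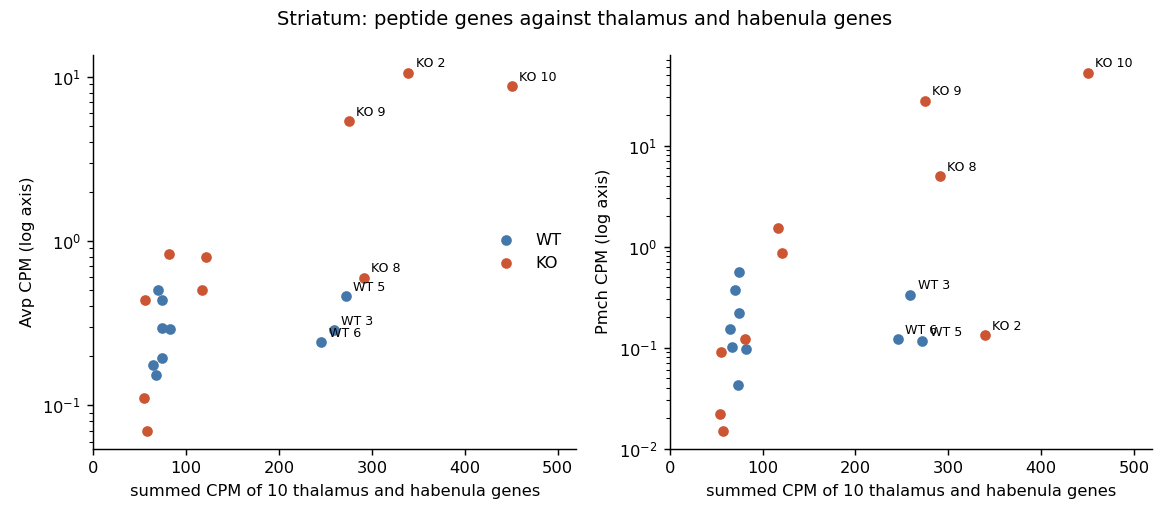
Avp (left) and Pmch (right) in CPM (log axis) against the summed CPM of 10 thalamus and habenula genes (linear axis) in the 20 striatum libraries, WT in blue and KO in red, with the libraries of highest sum named. KO replicates 2, 9 and 10 are high for Avp and for the sum, whereas WT replicates 3, 5 and 6 have a high sum with Avp at 0.241 to 0.462 CPM; the lowest Pmch point stands for 0 reads.

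The libraries differed in which of these genes they held, by genes singled out after their values were seen. KO replicate 2 had the highest Pou4f1 (2.42 CPM, WT at most 0.143) and Gpr151 (4.59 CPM, WT at most 0.715), both habenular, and the highest Gbx2 (6.45 CPM, WT at most 1.10) and, from the septal list, Zic1 (74.6 CPM, WT at most 32.3). KO replicate 10, with the most Pmch and Hcrt, was highest for Prkcd (206.4 CPM) and Rgs16 (42.0 CPM) and lowest of the 20 for Gpr151 (0.217 CPM). Trh, a further hypothalamic peptide, had its 3 highest values in KO replicates 10, 9 and 2, at 10.7, 9.68 and 7.40 CPM, with WT at 3.06 to 7.35. The 8 striatal neuron genes summed lowest in KO replicate 10 (4330 CPM) and 18th of 20 in KO replicate 2 (4701 CPM). 

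Pituitary genes followed other libraries. Growth hormone (Gh) was highest in KO replicate 3 in every region, at 17.8 CPM in hippocampus, 21.7 in prefrontal cortex and 5.55 in striatum, and WT had at most 5.06 CPM in any region. Prolactin (Prl) was highest in the same 3 libraries, at 4.12, 2.40 and 0.491 CPM. Pomc, which the pituitary expresses, was highest in KO replicate 3 in hippocampus (1.23 CPM) and prefrontal cortex (1.43 CPM), and Avp and Oxt had their KO maximum for prefrontal cortex there. In KO striatum replicates 2 and 10 there were 0 reads of Gh and Prl. The part of pituitary RNA in the values of KO replicate 3 was not tested. The 8 pituitary genes summed to 1.86 to 4.22 CPM in WT striatum and to 1.76 to 8.37 in KO striatum.

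Of the other sources tissue could come from, the sums in striatum were 83.5 to 121.0 CPM (WT) and 84.9 to 126.3 (KO) for 6 basal forebrain cholinergic genes, 7.55 to 9.88 and 7.60 to 11.3 for 6 midbrain dopamine genes, and 34.5 to 1311 and 21.97 to 1139 for 7 choroid plexus genes. The 6 septal genes summed to 81.1 to 110.3 CPM in WT and to 80.5 to 189.0 in KO. The 6 olfactory bulb genes summed to 10.1 to 15.2 in WT and 9.08 to 18.6 CPM in KO. Of 10 other hypothalamic peptide genes, 4 passed the filter in striatum and 0 were called. Their sum was at most 21.5 CPM in WT and 18.1 to 25.6 in KO, highest in KO replicates 10 (25.6), 9 (25.5) and 2 (23.1). Agrp, an arcuate peptide, made up most of it, at 12.3 to 15.3 CPM in WT and 13.8 to 16.6 in KO. Its WT level was similar in every region, with 15.2 ± 0.81 CPM in hippocampus, 12.1 ± 0.36 in prefrontal cortex and 13.9 ± 0.91 in striatum (SD). Most of the sum was therefore not particular to striatum. By edgeR, 0 genes of the thalamic, septal, cholinergic, midbrain dopamine, choroid plexus and pituitary lists were called between KO and WT in striatum. Gbx2 and, of the dopamine list, Slc18a2 (0.70 ± 0.19) had an unadjusted p under 0.05. Olfactory bulb genes were called in prefrontal cortex (Scgn, -2.20 ± 0.44) and over the 3 regions (Tbx21, -1.09 ± 0.27), and the dopamine gene Th over the 3 regions (-0.59 ± 0.18).

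The genes nearest to each peptide in their pattern, among genes of at least 0.5 CPM and on the region where the peptide's spread was largest, were found in striatum for 6 of the 8. Avp, Oxt, Pmch and Hcrt reach that level only through the few high KO libraries, which their r values share, so these are descriptions. Snx8 (r = 0.91), Oxt (0.91), Shd (0.88), Arl2bp (0.86) and Lbh (0.86) came first for Avp over 20 libraries. Avp (0.91), Calb2 (0.86), Snx8 (0.86), Gbx2 (0.85) and Vat1 (0.83) came first for Oxt. Emc6 (0.88), Dcps (0.87), Mpc2 (0.87), Acaa1a (0.87) and Erp29 (0.85) came first for Pmch, and Uqcrfs1 (0.92), Glrx5 (0.90), Ndufab1 (0.87), Ndufs6 (0.87) and Pop4 (0.87) for Hcrt. Htr7, a serotonin receptor gene, was closest to Gal (0.97), followed by BC035947 (0.91), Igsf1 (0.89), Adcy8 (0.87) and Ano5 (0.87). For Crh, Morf4l2 (0.83), Polr2m (0.80), Atp6v0a1 (0.79), Chp1 (0.79) and Tub (0.78) led. Cartpt was closest to Zbtb7c (0.82), Peg10 (0.77), Ngb (0.77), Hap1 (0.76) and Otof (0.74) in hippocampus, and Pomc to Gm21970 (0.85), Diras1 (0.82), Ndufaf3 (0.80), Btbd2 (0.80) and G6pc3 (0.79) in prefrontal cortex. Without the 2 libraries farthest from each peptide's median, r ran from 0.54 (Vat1 with Oxt) to 0.96 (Htr7 with Gal). Glrx5 with Hcrt had 0.57 there. The 5 genes were picked as the highest of 14654 to 14830, so these r are high by choice.

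Receptors of these peptides were expressed in the dissected regions without a KO difference that passed. Of 16 receptor genes, 12 were tested in hippocampus, 10 in prefrontal cortex, 11 in striatum and 14 over the 3 regions, and edgeR's quasi-likelihood test called 0 in each, with 1, 1, 0 and 2 at an unadjusted p under 0.05. DESeq2 called 0 as well. The median log2 difference of the tested receptors was 0.00, 0.05, -0.05 and -0.05, beside 0.00 over all tested genes. The oxytocin receptor gene Oxtr had the smallest p in each region, with 13.8 against 11.6 CPM in hippocampus (0.24 ± 0.10), 7.08 against 5.76 in prefrontal cortex (0.29 ± 0.09) and 5.18 against 6.11 in striatum (-0.24 ± 0.15). Over the 3 regions it was the hypocretin receptor Hcrtr2, with 0.16 ± 0.07.

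Between WT regions, 7 of 14 tested receptors were called between hippocampus and prefrontal cortex, beside 10.1% of 15826 genes. Between striatum and hippocampus 5 were called, beside 10.2%, and between striatum and prefrontal cortex 5, beside 11.6%. The list was chosen with earlier results of these data known, and nothing is read from these counts. The vasopressin receptor Avpr1b was higher in hippocampus (0.467 CPM) than in striatum (0.0193) and prefrontal cortex (0.00438). The CRH receptor Crhr1 was highest in prefrontal cortex, as Crh was, at 32.6 CPM against 9.64 in hippocampus (-1.76 ± 0.07) and 11.3 in striatum (-1.52 ± 0.07). Crhr2 was lower in prefrontal cortex (0.585 CPM) than in hippocampus (2.58 CPM, 2.14 ± 0.16) and striatum (1.66 CPM, 1.5 ± 0.17). The galanin receptor Galr1 was higher in striatum, at 1.26 CPM, than in hippocampus (1.67 ± 0.19) and prefrontal cortex (5.03 ± 0.28). Melanocortin receptors, which bind peptides cut from Pomc, differed in direction: Mc4r was higher in hippocampus (3.88 CPM) than in striatum (1.24 CPM) and Mc3r was higher in striatum (0.810 CPM) than in hippocampus (0.252 CPM). The opioid receptor Oprm1, the target of beta-endorphin, was higher in striatum than in hippocampus (1.24 ± 0.08) and prefrontal cortex (1.79 ± 0.08). Oxtr was higher in hippocampus than in prefrontal cortex by 1.01 ± 0.12, just past the limit of 1, and fell short of it with DESeq2 (0.998). Mchr1, the receptor of melanin-concentrating hormone, was at 32.4 CPM in striatum and 17.2 in hippocampus, a difference of 0.91 ± 0.05 that is under that limit.

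The 10 genes that cut, carry and amidate peptide precursors were all tested, and 0 were called between KO and WT in any region. The unadjusted p was under 0.05 for Cpe in hippocampus (0.06 ± 0.03) and for Pcsk1n in prefrontal cortex (0.23 ± 0.10). Between WT regions the proconvertase gene Pcsk1 was lower in hippocampus (33.6 CPM) and striatum (34.9 CPM) than in prefrontal cortex (81.2 CPM), and Pcsk2 was lower in hippocampus (297.3 CPM) than in prefrontal cortex (624.4 CPM). The CRH binding protein gene Crhbp was lower in striatum (9.94 CPM) than in hippocampus (20.4 CPM, -1.04 ± 0.10) and prefrontal cortex (21.3 CPM, -1.09 ± 0.10). Of the 12 hypothalamic transcription factors, Tbx3 was higher in KO over the 3 regions (0.33 ± 0.06). It had 2.42 against 1.92 CPM in hippocampus, 3.39 against 2.63 in prefrontal cortex and 2.98 against 2.42 in striatum. The differences were alike, at 0.333 ± 0.089, 0.356 ± 0.115 and 0.301 ± 0.113 in the same order (log2, SE). Over the 3 regions 2 of the 12 factors passed the filter on low counts. Tbx3 was the 1 called, beside 4.06% of 15987 genes, and in the separate regions it was not called. Tbx3 is also 1 of the 12 genes of the mean used above as a covariate. The cause of the Tbx3 difference was not tested.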

How the data were processed

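The submitters' processing notes name build GRCm38 and, with no order, STAR 2.5.2b, DESeq2 1.16.1, bedtools, cutadapt 1.16 and FastQC 0.11.4. The authors deposited raw read counts per gene, over whole gene spans with introns, per the file headers. How strand and reads mapping to several places were handled is not given in these sources. The table held 21950 protein-coding genes in 60 libraries of 38985577 to 51387833 reads.

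Counts were tested with edgeR 4.0.16 (quasi-likelihood, TMM, filter on low counts, Benjamini-Hochberg adjusted p under 0.05; between WT regions also a log2 difference of at least 1) in R 4.3.3. CPM used TMM factors over all libraries, and log2 CPM a prior count of 2. Alternatives were DESeq2 1.42.0, RLE size factors, other filters, all libraries in 1 fit, a replicate block, sums over equally numbered libraries, a score covariate and leaving out libraries. Tested on simulated counts of KO and WT striatum (15553 genes), edgeR recovered 95% of 100 genes changed by 1 and 75% of 100 changed by 0.5 on the log2 scale, with 9 false calls. No replicates were near-identical. Correlations used Python 3.11.15 with scipy 1.17.1.

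The members and lists were chosen with earlier results of these data known. Named were the 8 members, Adgrl3, list genes that passed or had the smallest p or highest level, and the 5 genes closest to each member by Pearson r. Others are said to be singled out. The labels number the replicates without tying each to a mouse, so p-values measure the spread between these samples.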

Additional observations from a re-analysis of the deposited data

Results flagged for a closer look

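Of 48 groups of 10 libraries, 1 for each gene, genotype and region, 3 held a library apart from the rest by Dixon's test. In these, the gap in log2 CPM to the next library, divided by the range of the 10, passed the 95% critical value of 0.466. Chance gives about 1 in 20. Avp in prefrontal cortex of KO replicate 3 was at 0.057 log2 CPM (0.996 CPM), against at most 0.279 CPM in the other 9. Oxt in prefrontal cortex of WT replicate 6 was at 0.937 log2 CPM (1.87 CPM), against at most 0.208 CPM in the other 9. Pmch in prefrontal cortex of KO replicate 8 was at -0.18 log2 CPM (0.839 CPM), against at most 0.257 CPM in the other 9. None of the 3 was in KO striatum, where several libraries were high.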

How the results depend on the processing

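The number of genes called between KO and WT moved with the tool. With DESeq2 it was 46 in hippocampus, 221 in prefrontal cortex and 28 in striatum, against 20, 18 and 8 with edgeR, and with all 60 libraries in 1 fit 208 in prefrontal cortex and 22 in striatum. DESeq2 called 2 members in striatum (0.158% of all genes) and the fit of all libraries 3 (0.136%). With the transcription factor score as covariate 38 genes were called in hippocampus. Over the 3 regions, sums over equally numbered libraries gave 27 genes and 0 members against 649 and 1, and without the filter on low counts 2 members were called (Pmch and Hcrt), beside 2.59% of all genes. The test of a genotype difference between regions called 4 genes, 1 with RLE size factors and 2 without KO striatum replicates 2, 9 and 10 (chosen after seeing the data). Leaving out 1 library gave 12 to 26 genes in hippocampus, 9 to 68 in prefrontal cortex and 5 to 15 in striatum, with 0 members called each time. The same region contrasts in KO called 3 members between striatum and hippocampus, beside 10.4% of 15776 genes, and 5 between striatum and prefrontal cortex, beside 12.6%, and nothing is read from these counts. They had the opposite sign to WT for Avp (2.91) and Oxt (3.33) for striatum against hippocampus and Oxt (3.95) for striatum against prefrontal cortex. The KO set includes striatum replicates 2, 9 and 10, and the WT set hippocampus replicate 7 (Avp 2.16 CPM) and prefrontal cortex replicate 6 (Oxt 1.87 CPM), while WT medians were higher in striatum. The cause was not tested. With the replicate number as a block, 5, 10 and 3 genes were called in the 3 regions, 1054 over the regions and 0 for the difference between regions, Avp was 2.09 ± 0.76 in striatum and 0.28 in hippocampus, and Pmch over the regions 1.92 ± 0.58. The number is not shown to pair KO with WT: 2, 3 and 2 of 10 equally numbered pairs had a correlation of deviations over 0.1, whereas between hippocampus and prefrontal cortex of 1 genotype all 10 had. Depth limits Hcrt, Oxt and Pmch most, which had under 10 reads in most libraries, and reads shared between Avp and Oxt cannot be assigned with certainty.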

Other observations

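For equally numbered libraries, the Pearson r of Avp between hippocampus and prefrontal cortex over 10 numbers was 0.68 in KO (Spearman's rho 0.72) and 0.48 in WT (0.49). Between hippocampus and striatum it was 0.56 in KO (0.62) and 0.09 in WT (-0.16), and between prefrontal cortex and striatum -0.04 in KO (0.27) and -0.33 in WT (-0.26). These 6 values are descriptions, with no p.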
